A study of Mus musculus with 6 samples.

Results

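The genes described here are 10 chaperone genes of the mouse brain: Hspa1a and Hspa1b, the inducible members of the Hsp70 family, the co-chaperones Dnajb1 and Hsph1, the cytosolic Hsp90 genes Hsp90aa1 and Hsp90ab1, the constitutive Hsp70 gene Hspa8, the endoplasmic reticulum chaperone Hspa5, and the mitochondrial chaperonins Hspd1 and Hspe1. They were chosen by name from the 32285 genes in the files, and all 10 were found by symbol. The choice was made with their difference between young and older sections already known, so their differences from young are given below as descriptions, and the calls among them, and those of regional departures from them, are not independent of the choice. Hspa1a and Hspa1b encode nearly the same protein, and their counts were added up unless stated.

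Hsp70 proteins bind unfolded stretches of other proteins and release them again in a cycle driven by ATP. J-domain co-chaperones such as Dnajb1 bring in substrates and speed ATP hydrolysis, and nucleotide exchange factors such as Hsph1 (Hsp110) speed the release. In unstressed tissue the heat shock factor Hsf1 is held inactive by chaperones, and heat, proteotoxic stress or ischaemia frees it to bind heat shock elements in front of the inducible genes.

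Brains of C57BL/6J males, from an inbred strain kept without a treatment named in the labels, had been frozen, cut coronally at 16 µm and profiled by spatial RNA sequencing (Visium). Young mice were 6 months, middle mice 18 months and old mice 21 months old. The labels give 2 males and 2 sections for each age, and each section was taken as 1 animal. In this assay the tissue lies on a grid of barcoded spots, polyadenylated transcripts are counted near their 3′ ends as unique molecular identifiers (UMIs, 1 per captured molecule), and a spot can hold several cells of different types. Of the slides, 1 held both young sections together with middle 1 and old 1, while middle 2 and old 2 were on another.

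Replicates are sections of different mice as far as the labels say. The sections held between 60939185 and 77557934 UMIs in 2573 to 2973 spots, with both old sections the shallowest, and 16741 of 16743 spots were kept. The summed markers of neurons lay between 4615 and 5126 counts per 1000000 UMIs of the section or region (CPM) and those of oligodendrocytes between 6019 and 7061 CPM in the 6 sections, so the labelled tissue carried its defining transcripts throughout. Those of astrocytes summed to 1564 to 1733 CPM, of endothelial cells to 219 to 248 CPM and of erythrocytes to 10.95 to 63.4 CPM. Those of microglia summed to 267 and 293 CPM in young, 319 and 335 CPM in middle and 339 and 379 CPM in old sections. Spot barcodes mark positions on the slide grid, and any 2 sections shared between 2082 and 2826 of them. Spots were grouped by like expression without the chaperone genes, and 18 of 23 clusters were named from marker genes as 9 regions. These regions (isocortex, hippocampal formation, thalamus, hypothalamus, striatum, amygdala and olfactory cortex, white matter, choroid plexus and ventricle, and meninges) are groups of like spots, each only similar to the named region, and not outlined anatomy. The hippocampal group of young 1 had only 46 spots, against 170 to 276 in the other 5 sections.

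Hspa1a (ENSMUSG00000091971, chromosome 17, 34969190 to 34972156, minus strand, GRCm38) and Hspa1b (ENSMUSG00000090877, chromosome 17, 34956436 to 34959238, minus strand) are intronless neighbours. In the GENCODE M21 transcripts their coding sequences were 99.4% identical, while the sequence behind the stop codon was only 47.3% identical (810 bases in Hspa1a, 643 in Hspa1b). The last 300 bases of the transcripts, where this assay counts, were 50.1% identical. Their start regions are shown because both genes had nearly the same level in every whole section. The windows run from 250 bases before to 50 bases after the start and come from RefSeq on GRCm38.p6. Capitals mark a pair of heat shock units facing each other, GAANNTTC. All heat shock patterns read the same on both strands apart from the runs of 3 units, which were searched on both.

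Hspa1a, chr17:34972107-34972406, minus strand: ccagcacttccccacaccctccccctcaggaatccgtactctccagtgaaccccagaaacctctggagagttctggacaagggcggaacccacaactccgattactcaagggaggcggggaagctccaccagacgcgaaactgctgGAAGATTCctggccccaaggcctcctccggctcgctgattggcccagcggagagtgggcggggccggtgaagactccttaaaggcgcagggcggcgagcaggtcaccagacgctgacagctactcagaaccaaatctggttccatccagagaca

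Hspa1b, chr17:34959189-34959488, minus strand: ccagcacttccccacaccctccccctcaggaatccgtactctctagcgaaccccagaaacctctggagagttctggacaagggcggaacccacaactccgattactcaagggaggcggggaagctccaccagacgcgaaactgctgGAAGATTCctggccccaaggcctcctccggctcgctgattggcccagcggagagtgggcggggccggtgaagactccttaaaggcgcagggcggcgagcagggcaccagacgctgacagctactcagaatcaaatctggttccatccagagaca

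The 2 windows were identical at 296 of 300 bases. Counted from the first base shown, with the base of Hspa1a first, the differences were C44T, T47C, T249G and C276T, and none lies in the capitals. Either order of the pair, GAANNTTC or TTCNNGAA, was present in 15.1% of the 32851 promoter windows of the table, so a match alone is common. Runs of 3 units (GAANNTTCNNGAA or TTCNNGAANNTTC) were present in 0.603% of windows. Hsph1 and the shared start region of Hspe1 and Hspd1 hold such a run, and are shown with their units in capitals, counting the pairs that overlap in the run.

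Hsph1, chr5:149636287-149636586, minus strand: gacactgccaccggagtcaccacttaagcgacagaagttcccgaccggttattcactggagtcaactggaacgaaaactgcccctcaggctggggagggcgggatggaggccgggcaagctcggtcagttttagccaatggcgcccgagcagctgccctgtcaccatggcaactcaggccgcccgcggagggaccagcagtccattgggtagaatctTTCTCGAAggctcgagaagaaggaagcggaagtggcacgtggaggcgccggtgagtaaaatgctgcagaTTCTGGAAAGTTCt

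Hspe1 (with Hspd1 on the opposite strand), chr1:55087898-55088197, plus strand: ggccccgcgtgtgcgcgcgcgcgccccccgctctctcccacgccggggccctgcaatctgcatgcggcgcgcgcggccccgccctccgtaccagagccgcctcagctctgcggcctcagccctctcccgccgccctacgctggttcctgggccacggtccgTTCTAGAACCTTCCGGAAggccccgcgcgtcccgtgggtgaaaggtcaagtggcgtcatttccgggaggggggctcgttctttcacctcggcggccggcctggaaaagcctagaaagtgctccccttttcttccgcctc

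Hspa5 is shown because its ages overlapped throughout while it belongs to the same protein family. The capitals mark the element of the endoplasmic reticulum stress response (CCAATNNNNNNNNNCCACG, searched on both strands), which was present in 0.119% of windows.

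Hspa5, chr2:34771840-34772139, plus strand: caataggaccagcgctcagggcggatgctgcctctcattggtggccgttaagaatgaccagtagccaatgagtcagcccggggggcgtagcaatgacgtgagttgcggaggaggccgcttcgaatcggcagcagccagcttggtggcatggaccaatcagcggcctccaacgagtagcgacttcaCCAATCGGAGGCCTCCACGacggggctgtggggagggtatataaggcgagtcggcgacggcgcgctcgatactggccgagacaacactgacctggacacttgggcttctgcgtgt

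Both windows of Dnajb1 held none of these letters. Windows were used for 7 of the 10 genes, not for Hsp90aa1, Hspa8 and Hsp90ab1. A match is a description of the letters and not of a bound site.

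In the whole sections, Hspa1a measured 53.7 CPM in young 1 and 56.6 CPM in young 2. It measured 16.1 and 17.4 CPM in middle 1 and 2, and 18.6 and 15.6 CPM in old 1 and 2. Hspa1b, counted at its own 3′ end, measured 53.8 and 50.7 CPM in the young sections, 16.4 and 15.2 CPM in the middle and 16.6 and 13.2 CPM in the old sections. For each gene the 2 young sections lay near each other and far above all 4 older sections, which overlapped. Hspa1a rested on 4130 and 4387 UMIs in the young and on 948 to 1312 UMIs in the older sections. The sum of both genes was 107.5 and 107.2 CPM in young, 32.5 and 32.6 CPM in middle and 35.3 and 28.8 CPM in old sections, so that the young mean was 3.30 times the middle and 3.35 times the old mean. On the log2 scale the sum differed by -1.74 (SE 0.089) between middle and young and by -1.80 (SE 0.089) between old and young. These contrasts share the young sections. On the slide that held both young sections, middle 1 and old 1 were below them too, as were middle 2 and old 2 on the other slide. In sums over a section, fewer cells with the transcript and less transcript per cell cannot be told apart.

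**Figure D1:**
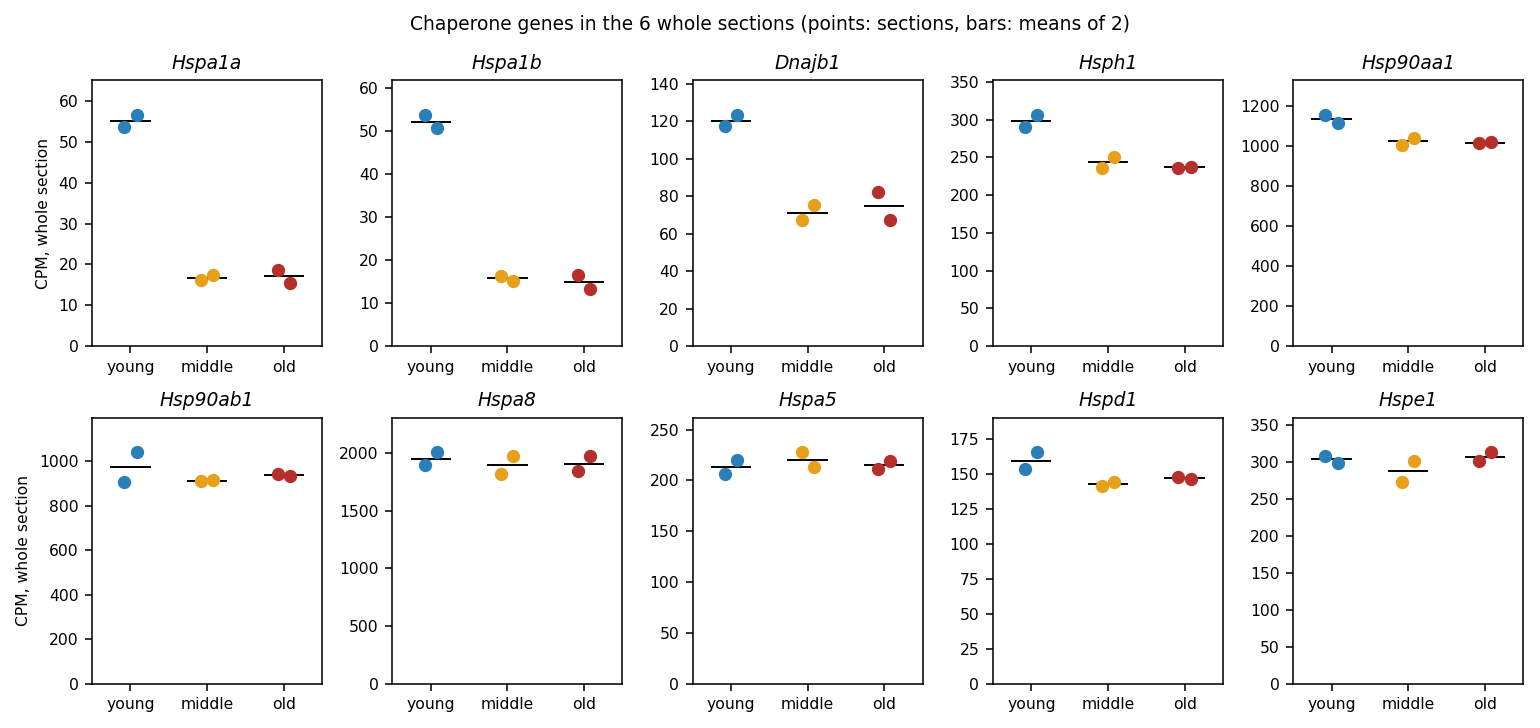
Level of each of the 10 chaperone genes in the whole sections, in CPM on axes that start at 0, with 1 point per section and a bar at the mean of the 2 sections of an age. Hspa1a, Hspa1b, Dnajb1 and Hsph1 are higher in both young sections than in all 4 older ones. So are Hsp90aa1 and Hspd1, by a smaller fold, while Hsp90ab1, Hspe1, Hspa8 and Hspa5 overlap between ages.

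The co-chaperones came next. Dnajb1 (chromosome 8, 83608193 to 83612653), the J-domain partner induced together with Hsp70, measured 117.5 and 123.5 CPM in young, 67.3 and 75.4 CPM in middle and 82.1 and 67.5 CPM in old sections. The young sections were above all others, and the middle and old sections overlapped. Its log2 difference was -0.78 (SE 0.090) for middle and -0.74 (SE 0.090) for old against young. Hsph1 (chromosome 5, 149614287 to 149636376), the Hsp110 exchange factor, measured 289.7 and 306.1 CPM in young, 235.8 and 251.0 CPM in middle and 236.6 and 237.6 CPM in old sections. It too was highest in both young sections, with log2 differences of -0.31 (SE 0.051) for middle and -0.38 (SE 0.051) for old.

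Among the Hsp90 genes, Hsp90aa1, the stress-responsive alpha form, measured 1155 and 1114 CPM in young and between 1005 and 1040 CPM in the 4 older sections, a log2 difference of -0.21 (SE 0.058) between old and young. The ranges of young and older sections did not overlap, but the gap was small. Hsp90ab1, the constitutive beta form, measured 908.8 and 1041 CPM in the young sections and 909.9 to 945.2 CPM in the others, so that young 1 lay below all 4 older sections.

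Hspa8, the constitutive Hsc70 that clears clathrin coats and folds new proteins, measured 1898 and 2006 CPM in young, 1815 and 1976 CPM in middle and 1843 and 1973 CPM in old sections. In each age the values spread as far as between ages. Hspa5 (BiP), the Hsp70 of the endoplasmic reticulum, measured 206.6 and 220.5 CPM in young, 227.6 and 213.3 CPM in middle and 211.1 and 219.2 CPM in old sections, with full overlap. The mitochondrial chaperonin Hspd1 (Hsp60) measured 153.2 and 165.1 CPM in young and 140.9 to 147.6 CPM in the older sections, a log2 difference of -0.17 (SE 0.049) between old and young. Its partner Hspe1 (Hsp10) measured 308.7 and 299.5 CPM in young and 273.2 to 313.5 CPM in the others, and overlapped.

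With edgeR's quasi-likelihood test at a Benjamini-Hochberg adjusted p under 0.05, which called 28 of 17672 genes (0.158%) between old and young, 3 of the 9 rows were called, namely the Hsp70 sum, Dnajb1 and Hsph1, all lower. Between middle and young, 4 genes (0.0226%) were called, among them the Hsp70 sum. As these contrasts had chosen the genes, nothing is read from these counts. With 1 old section left out, the log2 difference of Hspa1a plus Hspa1b was -1.95 without old 1 and -1.66 without old 2.

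The step from 18 to 21 months was not used in the choice and was tested. Of the 9 rows, 0 were called by edgeR and 0 had an unadjusted p under 0.05. Of all 17672 genes 0.0% were called by edgeR, 361 had an unadjusted p under 0.05, and DESeq2 also called 0. The log2 differences of the 9 rows between old and middle sections lay between -0.07 (Hsph1) and 0.07 (Hspe1). For the Hsp70 sum the difference was -0.05 (95% interval -0.26 to 0.15), and for Dnajb1 it was 0.04 (-0.17 to 0.25). Differences within these intervals are compatible with the data. The intervals are not a limit of detection, as a larger difference could also go uncalled after adjustment over all genes with 2 sections per age.

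In the regions, Hspa1a plus Hspa1b was higher in both young sections than in all 4 older sections in every one of the 9 groups of spots, but by very different amounts. In white matter, the myelinated tracts, the sum measured 287.1 and 400.9 CPM in young 1 and 2, 40.7 and 29.7 CPM in middle 1 and 2, and 38.0 and 21.4 CPM in old 1 and 2. In the choroid plexus and ventricle, where cerebrospinal fluid is made, it measured 270.6 and 287.6 CPM in young, 44.0 and 41.7 CPM in middle and 38.6 and 25.9 CPM in old sections. In both regions the middle and old sections overlapped or nearly met, far below the young ones. The young mean was 11.6 times the old mean in white matter and 8.66 times in choroid plexus and ventricle. In the meninges, the covering membranes, the sum measured 499.1 and 263.2 CPM in young, 26.5 and 38.4 CPM in middle and 47.2 and 47.5 CPM in old sections. The 2 young sections differed most from each other there, and the young mean was 8.05 times the old mean.

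In the isocortex the sum measured 74.2 and 74.8 CPM in young, 35.9 and 36.2 CPM in middle and 41.0 and 33.1 CPM in old sections, and the young mean was 2.01 times the old mean. The amygdala and olfactory cortex, with 64.3 and 58.2 CPM in young, 27.3 and 43.0 CPM in middle and 31.5 and 29.0 CPM in old sections, had nearly the same fold of 2.02. These were the regions of smallest fold. The hippocampal formation had 120.3 and 89.9 CPM in young, 39.9 and 40.9 CPM in middle and 39.3 and 38.0 CPM in old sections, a fold of 2.72. The hypothalamus had 82.5 and 93.0 CPM in young, 26.8 and 27.1 CPM in middle and 25.3 and 24.4 CPM in old sections, a fold of 3.53. In both, the older sections lay close together and the young ones stood clear of them. The striatum had 70.2 and 77.9 CPM in young, 9.38 and 12.3 CPM in middle and 13.6 and 9.64 CPM in old sections, a fold of 6.37. The thalamus had 87.8 and 97.0 CPM in young, 12 and 16.3 CPM in middle and 16.2 and 9.36 CPM in old sections, a fold of 7.22. Striatum and thalamus thus had the lowest levels of all regions in the older sections, but not in the young ones.

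**Figure D2:**
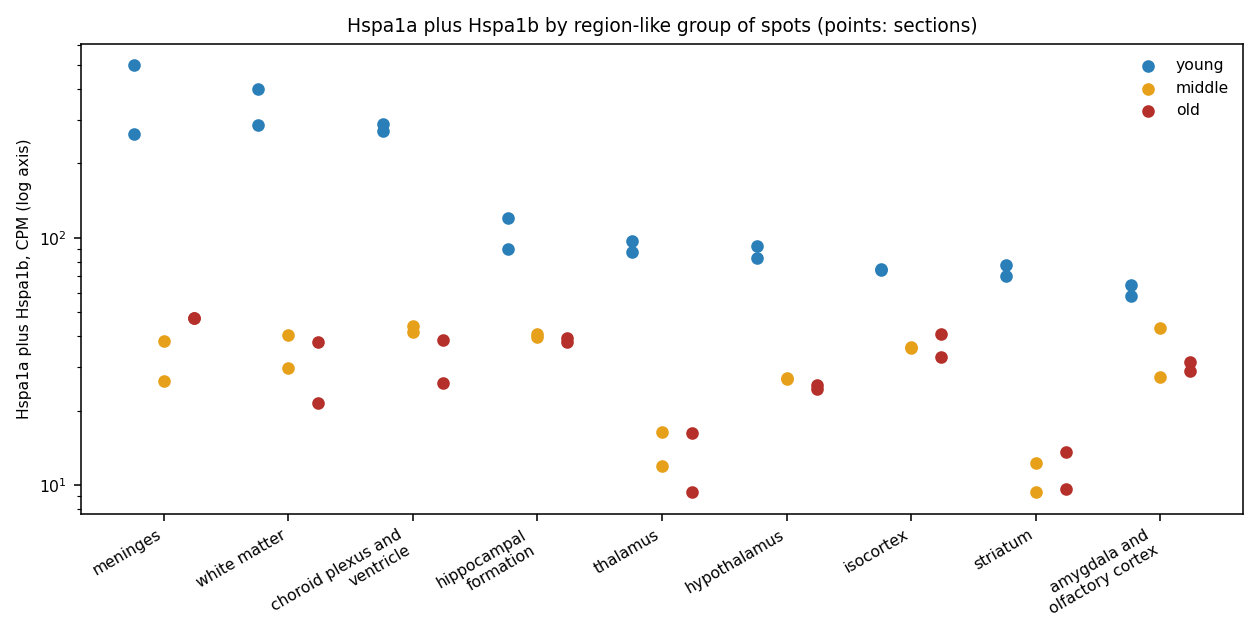
Level of Hspa1a plus Hspa1b in CPM on a log axis in 9 groups of spots, with 1 point per section and colours for age. Both young sections lie above all older sections in every region, and the gap is widest in meninges, white matter and choroid plexus and ventricle and narrowest in isocortex and in amygdala and olfactory cortex.

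The order of the regions differed between ages. In young sections, meninges (mean 381 CPM), white matter (344 CPM) and choroid plexus and ventricle (279 CPM) came first, and neighbours among them overlapped. A gap without overlap separated them from the hippocampal formation (105 CPM), which overlapped the thalamus (92.4 CPM), and the thalamus overlapped the hypothalamus (87.8 CPM). Isocortex (74.5 CPM) and striatum (74.1 CPM) overlapped each other, and amygdala and olfactory cortex was last (61.2 CPM). In old sections the same means spanned only 47.4 CPM in meninges to 11.6 CPM in striatum, with white matter in the sixth place at 29.7 CPM. In middle sections they ran from 42.8 CPM in choroid plexus and ventricle to 10.9 CPM in striatum. At both older ages thalamus and striatum overlapped each other and lay below the hypothalamus without overlap. From the third rank (isocortex) down to the hypothalamus, each region overlapped its neighbour in the old sections, and so did those from isocortex to the hypothalamus in the middle sections.

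On the log2 scale the sum differed between old and young by -3.60 in white matter, -3.07 in choroid plexus and ventricle, -3.06 in meninges, -2.90 in thalamus and -2.75 in striatum. The difference was -1.86 in hypothalamus, -1.40 in the hippocampal formation, -1.04 in isocortex and -1.03 in amygdala and olfactory cortex. The median over the 9 regions was -2.75 for old and -2.70 for middle sections, both against the same young sections. In amygdala and olfactory cortex, where middle 2 was nearest to the young sections, the middle value was -0.78, and it was -3.60 in meninges.

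The co-chaperones had the same direction in every region. Dnajb1 was higher in both young than in all older sections in 9 of 9 regions, with log2 differences between old and young from -2.27 in meninges to -0.52 in isocortex and a median of -0.75. In meninges Dnajb1 measured 344.2 CPM in young 1 but 128.3 CPM in young 2, against 36.3 to 65.2 CPM in the older sections, so that young 1 stood far above young 2 as well. In choroid plexus and ventricle Dnajb1 measured 251.2 and 259.0 CPM in young, 55.4 and 82.1 CPM in middle and 100.2 and 71.6 CPM in old sections. There the young sections nearly met each other. Hsph1 too was highest in both young sections in 9 of 9 regions, and its log2 differences ran from -0.77 in white matter to -0.22 in amygdala and olfactory cortex. In white matter Hsph1 measured 160.6 and 185.8 CPM in young, 120.4 and 127.6 CPM in middle and 111.2 and 101.1 CPM in old sections, without overlap between any of the ages.

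The remaining chaperones differed less. Both young sections were above all 4 others in 7 of 9 regions for Hsp90aa1 and for Hspd1, in 3 for Hspa8, in 2 each for Hsp90ab1 and Hspe1, and in 0 for Hspa5. The log2 differences between old and young ran from -0.46 to -0.14 for Hsp90aa1, from -0.38 to -0.09 for Hspd1, from -0.40 to -0.01 for Hsp90ab1 and from -0.39 to 0.01 for Hspa8. Those of Hspe1 ran from -0.32 to 0.03. Those of Hspa5 ran from -0.24 in striatum to 0.09 in hypothalamus and were below 0 in only 4 of 9 regions.

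**Figure D3:**
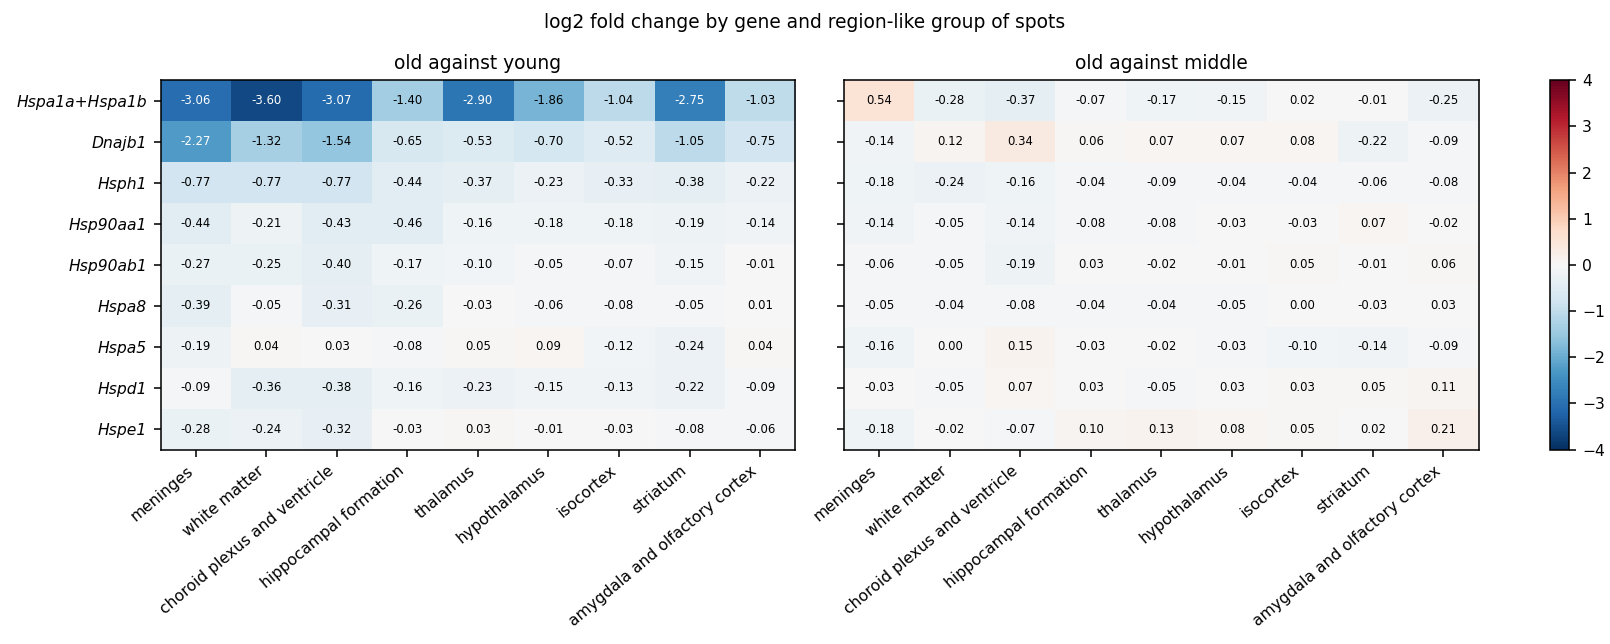
Log2 difference between old and young (left) and between old and middle sections (right) for the 9 rows in the 9 regions, as colours from blue (lower in old) to red (higher in old) with the value in each cell. On the left the top rows, from -3.60 to -1.03 for Hspa1a plus Hspa1b, are darkest and Hspa5 is near 0, while on the right every value lies between -0.37 and 0.54.

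Of the 81 pairs of a row and a region, 16 were called between old and young and 12 between middle and young, all lower. Of all pairs of a gene and a region, 0.311% and 0.493% were called in these contrasts. These are the contrasts of the choice, and nothing is read from the counts. The 16 pairs were Hspa1a plus Hspa1b in 9 regions, Dnajb1 in 4 and Hsph1 in 3. Between old and middle sections 0 of the 81 pairs were called by edgeR, against 0.0183% of all pairs, 1 had an unadjusted p under 0.05, and DESeq2 called 0. That pair was Hsph1 in white matter, with a log2 difference of -0.24 (SE 0.099, adjusted p 0.489). With white matter taken as the tenth of spots of largest myelin share in each section, it was -0.43 with an adjusted p of 0.0357. The 81 differences lay between -0.37 and 0.54, both from Hspa1a plus Hspa1b, in choroid plexus and ventricle and in meninges. Their 95% intervals reached from -2.79 to 2.51 at the widest, so in the smaller regions large differences between 18 and 21 months remain compatible with the data.

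Whether the age difference of a region departed from that of all other spots of the same sections was tested with a term for that departure in edgeR, with each section as a block. The genes had been chosen with the difference between old and young known, in white matter among other places, so these tests are not fully independent of the choice. Of the 81 pairs, 8 were called between old and young (2 higher and 6 lower) and 7 between middle and young (2 higher and 5 lower). Of all pairs of a gene and a region, 0.182% and 0.539% were called. Both contrasts again share the young sections. Between old and middle 0 pairs were called by edgeR, against 0.0359% of all pairs, DESeq2 called 0, and 2 had an unadjusted p under 0.05, namely Dnajb1 in striatum (-0.26) and Hsph1 in white matter (-0.21).

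In isocortex the fall of Hspa1a+Hspa1b from young to old was smaller than elsewhere by 1.13 on the log2 scale (SE 0.065, 95% interval 0.99 to 1.27, adjusted p 1.69e-06). From young to middle it was smaller by 1.03 (adjusted p 4.27e-06). In choroid plexus and ventricle the old value departed by -1.33 (SE 0.20, 95% interval -1.73 to -0.94, adjusted p 5.89e-06) and the middle value by -0.99 (adjusted p 0.00271). The calls in isocortex and in choroid plexus and ventricle between old and young were made under all 12 alternatives, with adjusted p up to 0.000622 and 0.0124. The middle call in choroid plexus and ventricle was not made by DESeq2 (adjusted p 0.098) or with at least 10 UMIs in every sum (adjusted p 0.106).

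Other regional departures of Hspa1a+Hspa1b were not called under every alternative. In amygdala and olfactory cortex it was 0.81 (SE 0.18, adjusted p 0.0192), and it was 0.89 without old 1, 0.69 without young 2 and 0.70 without old 2, with adjusted p of 0.19, 0.317 and 0.689. In meninges it was -1.31 (SE 0.26, adjusted p 0.00653), but -0.73 without young 1 (adjusted p 0.396), -1.14 without old 1 (adjusted p 1.0), -1.31 without middle 2 (adjusted p 0.0679) and -1.43 without old 2 (adjusted p 0.786). With regions from clusters at resolution 0.5 it was only -0.33 (adjusted p 1.0), and it was called under 4 of 12 alternatives. In striatum it was -0.97 (SE 0.18, adjusted p 0.0139), and -1.08 without old 1 and -0.87 without old 2, with adjusted p of 0.194 and 0.375. None of these 3 calls was made by DESeq2 or with at least 10 UMIs in every sum. The sign was the same in each of these fits. Between middle and young the departure was 0.97 in amygdala and olfactory cortex (adjusted p 0.000948), called under 8 of 12 alternatives, and 0.60 without middle 2 (adjusted p 1.0) and 0.86 without young 2 (adjusted p 0.38). In meninges it was -1.91 for middle sections (adjusted p 2.49e-05), called under 7 of 12 alternatives, and -0.32 at resolution 0.5 (adjusted p 1.0), with calls lost without old 1 (adjusted p 0.0734) or old 2 (adjusted p 0.118). In striatum the middle value was -1.02 (adjusted p 0.00122), called under 10 of 12 alternatives and lost without middle 1 (adjusted p 0.0507).

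In white matter the departure of Hspa1a+Hspa1b had the largest size of the 9 regions, -1.99, but a wide interval (SE 0.37, 95% interval -3.06 to -0.91), and edgeR made no call (adjusted p 0.215). DESeq2 called it at -2.02 (adjusted p 5.83e-13), as did edgeR with young 1 (-2.27, adjusted p 1.47e-64) or young 2 (-1.69, adjusted p 8.25e-32) left out, when only 1 young section remained and was taken to vary like the others. In thalamus the value was -1.24 (SE 0.16, adjusted p 0.0542), called by DESeq2 (adjusted p 0.00061) and without middle 1 (adjusted p 0.00216) or middle 2 (adjusted p 0.00239). In the hippocampal formation it was 0.46 (SE 0.14, adjusted p 1.0) and, without young 1 with its 46 spots, 0.61 (adjusted p 0.005). In hypothalamus it was -0.06 (95% interval -0.31 to 0.19, adjusted p 1.0), the region nearest to the rest of the section.

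For Dnajb1 the departure in white matter was -0.61 between old and young (adjusted p 0.00096) and -0.67 between middle and young (adjusted p 0.000282). Both calls were made under 14 of 15 alternatives and were lost with limma on differences within sections (adjusted p 0.451 and 0.508). The departure of Dnajb1 was lowest in meninges (-1.56 for old and -1.37 for middle) and highest in isocortex (0.32 and 0.28), without a call in either. In choroid plexus and ventricle it was -0.84 (SE 0.18, adjusted p 0.011) for old and -1.14 (adjusted p 2.69e-05) for middle sections. The old call was lost without young 1 (adjusted p 0.279), old 1 (adjusted p 0.0796) or old 2 (adjusted p 0.374), with DESeq2 (adjusted p 0.322) and with at least 10 UMIs in every sum (adjusted p 0.212). For Hsph1 in white matter it was -0.41 (SE 0.097, adjusted p 0.0206), lost without young 2 (adjusted p 0.141) or old 2 (adjusted p 0.199) and with limma (adjusted p 0.596). With white matter taken as the tenth of spots of largest myelin share the Hsph1 value was -0.68, and with clusters at resolution 1.2 it was -0.62, both called. No call in these tests belonged to another of the 9 rows.

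**Figure D4:**
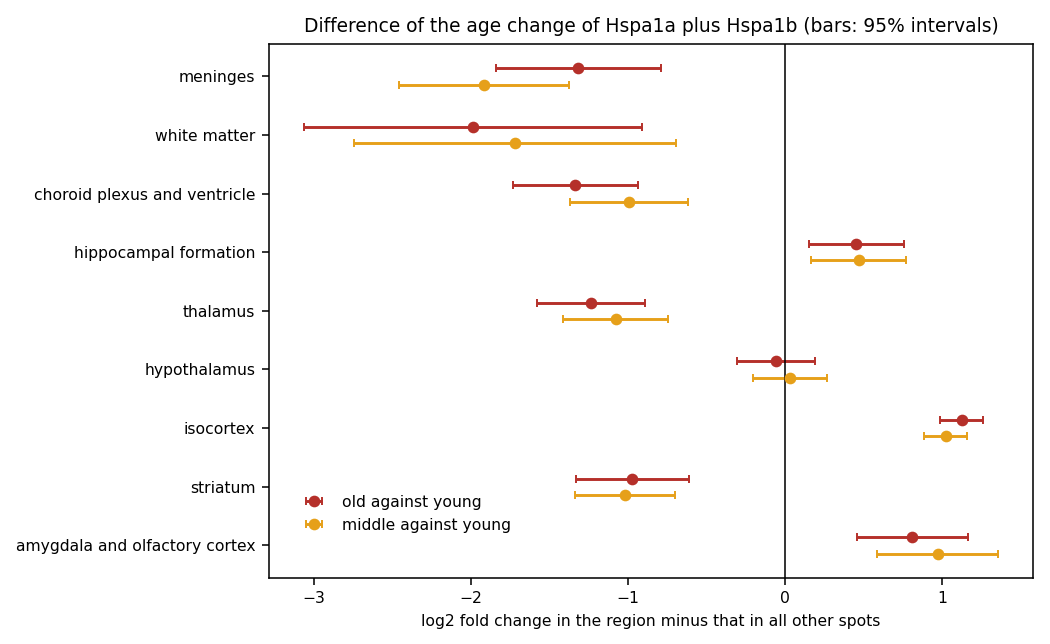
Departure of the age difference of Hspa1a plus Hspa1b in each region from that in all other spots, in log2 units, with 95% intervals, for old (red) and middle (yellow) against young sections. Isocortex and amygdala and olfactory cortex lie right of 0 (smaller fall than elsewhere), hypothalamus lies on 0, and meninges, white matter, choroid plexus and ventricle, thalamus and striatum lie left of it.

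Apart from age, the chaperones had regional patterns of their own, tested as the level in a region against all other spots over the 6 sections. Of 81 pairs, 51 were called (28 higher and 23 lower), while 57.9% of all pairs were called, so the count is near the background. Hspa5 was highest in choroid plexus and ventricle, a secretory epithelium, with 444.3 and 567.3 CPM in young, 500.3 and 419.1 CPM in middle and 525.9 and 479.1 CPM in old sections. It was 1.19 higher there on the log2 scale than in other spots (SE 0.060, adjusted p 1.11e-22), at every age. Hspe1 was highest in hypothalamus, with 379.9 to 439.4 CPM over the 6 sections (log2 difference 0.52, adjusted p 1.66e-12). Its partner Hspd1 was higher there too (0.27) and in thalamus (0.32), so the 2 mitochondrial genes shared the hypothalamus. Hsph1 was higher in thalamus, at 307.0 to 418.9 CPM (0.50, adjusted p 4.38e-11), and lower in white matter (-0.86) and meninges (-0.79). Hsp90aa1 was lower in meninges (-0.66) and striatum (-0.33) and higher in choroid plexus and ventricle (0.39). Hsp90ab1 was higher in white matter (0.27) and the hippocampal formation (0.24), and Hspa8 was higher in thalamus (0.22) and lower in striatum (-0.23). All these calls were made by edgeR and held under every alternative tried for them. For Hspa1a plus Hspa1b, whose regional level depended on age, the level was called in 4 of 9 regions. For Hspa1a+Hspa1b it was lower in striatum (-0.86, adjusted p 0.0173), thalamus (-0.75, adjusted p 0.0474) and hypothalamus (-0.35, adjusted p 7.14e-07) and higher in choroid plexus and ventricle (0.78, adjusted p 0.0443), while meninges (adjusted p 0.0742) and white matter (0.96, adjusted p 0.101) were not called. The call in hypothalamus was made under all 12 alternatives, that in striatum under 11 (lost without middle 2, adjusted p 0.0502), that in choroid plexus and ventricle under 6 and that in thalamus under 5. The last 2 were lost on leaving out any 1 section but old 2 (choroid plexus and ventricle) or young 2 (thalamus).

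Hspa1a and Hspa1b were nearly equal in whole sections, where Hspa1a made up 49.5% to 54.1% of the sum. In thalamus its share was 54.5% (95% Wilson interval 50.6% to 58.3%, 650 UMIs of both genes) in young 1 and 55.6% (52.6% to 58.6%, 1054 UMIs) in young 2. In the older sections there it was 68.0% and 67.4% in middle 1 and 2 and 70.1% and 64.2% in old 1 and 2, on 67 to 144 UMIs. The young and older sections did not overlap, but the interval of old 2 (52.2% to 74.6%) reaches the young values. Sections of 1 age could differ as widely elsewhere. In white matter the share was 41.4% (34.5% to 48.7%) in middle 1 and 61.4% (52.2% to 69.8%) in middle 2. In hypothalamus the share was 57.4% to 65.3% and in choroid plexus and ventricle its median was 45.6%. The intervals cover counting error only.

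Single spots were compared after each was thinned to 10000 UMIs, which left out 130 to 350 shallower spots per section. The mean count of Hspa1a plus Hspa1b per thinned spot was 1.19 in young 1 and 1.17 in young 2, 0.286 and 0.309 in middle 1 and 2, and 0.320 and 0.266 in old 1 and 2. At least 1 UMI was seen in 59.3% and 59.1% of thinned spots in young and in 21.6% to 25.8% in older sections. Without thinning, at median depths of 20362 to 30093 UMIs, these shares were 88.2% and 87.3% against 37.6% to 49.5%. The young spots also varied more. The variance was 2.39 and 2.07 times the mean in young sections and from 1.11 to at most 1.2 times the mean in the older ones, where 1 is the value of counting alone. The highest thinned spot held 21 UMIs in young 1 and 14 in young 2, against 4 or 5 in the older sections. Spots with 5 or more UMIs were 3.70% and 4.24% of young spots. In white matter the thinned mean was 2.84 and 3.89 in young and 0.202 to 0.410 in older sections, and in isocortex it was 0.714 and 0.726 against 0.299 to 0.383. In the young isocortex the variance was 1.12 and 1.23 times the mean, while in young white matter it was 2.41 and 1.80 times the mean. Hspa8, counted in the same spots, had a mean of 18.2 to 20.0 UMIs in every section.

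**Figure D5:**
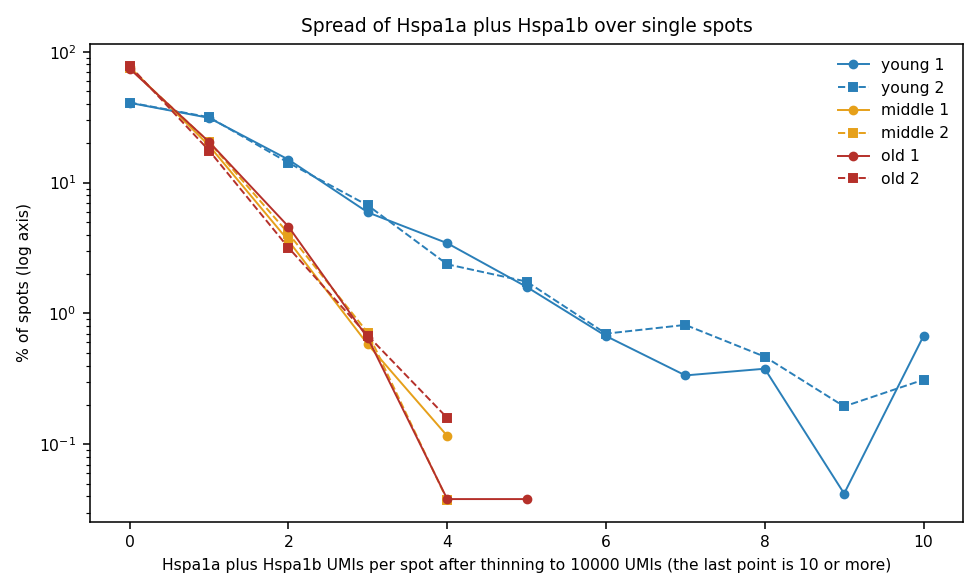
Share of spots (% on a log axis) by their count of Hspa1a plus Hspa1b after thinning to 10000 UMIs, with 1 line per section and counts of 10 or more joined in the last point (a share of 0 has no point). The young lines run out to the last point, while the lines of older sections end at 4 or 5 UMIs.

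Among 92 other chaperone and stress genes from 8 lists (Hsp70 family, J-domain co-chaperones, exchange factors and regulators, Hsp90 family, heat shock factors, endoplasmic reticulum, mitochondria and the chaperonin TRiC), 91 were tested in whole sections. With edgeR 0 were called in each of the 3 age contrasts. An unadjusted p under 0.05 was seen for 16 between old and young, 10 between middle and young and 1 between old and middle. Of all 17672 genes, 2245, 1381 and 361 had such a p in these contrasts. DESeq2 called 4 lower between old and young (Dnaja1, Dnaja4, Ahsa2 and Chordc1), 1 lower between middle and young (Ahsa2) and 0 between old and middle. Of all 17672 genes it called 193, 69 and 0. Their median log2 difference between old and young was -0.05, against -0.00 over all genes, and the central 90% of the 91 lay between -0.24 and 0.16. The Hsf1 transcript, for the main heat shock factor, measured 21.8 and 26.3 CPM in young and 24.4 to 26.2 CPM in older sections, and Hsbp1, which binds heat shock factors, 350.8 to 391.6 CPM in all 6. Dnaja1, the most abundant of the J-domain list and itself heat-inducible, measured 420.7 and 406.4 CPM in young and 352.1 to 366.9 CPM in older sections, with no overlap, and was not called (-0.26, adjusted p 0.157). Its relative Dnaja2 measured 214.2 to 221.0 CPM. Hspa9, the mitochondrial Hsp70, measured 169.7 to 176.2 CPM in all 6 sections, and Hspa4l, of the Hsp110 branch, measured 115.8 to 132.4 CPM. The Hsp70-binding St13 measured 130.2 to 134.1 CPM and the ubiquitin ligase Stub1 139.8 to 150.0 CPM. Hsp90b1, the endoplasmic Hsp90, measured 258.8 to 270.9 CPM, and the membrane-bound immunophilin Fkbp8 270.2 to 330.0 CPM. Of the endoplasmic reticulum lectin chaperones, Canx measured 311.3 to 328.2 CPM and Calr 261.3 to 286.5 CPM. The mitochondrial protease subunit Clpp measured 83.6 to 94.8 CPM. The TRiC subunits Tcp1 and Cct7 measured 180.3 to 195.1 CPM and 178.7 to 187.9 CPM. Besides Dnaja1, both young sections lay outside the older range, narrowly, for Hspa4l (above), Stub1 and Clpp (both below).

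In white matter 89 of the 92 genes were tested, and 4 were called lower by edgeR between old and young and 3 between middle and young, against 1.88% and 3.57% of all genes there. Between old and middle 0 were called by edgeR and by DESeq2, and 3 had an unadjusted p under 0.05. Of all 12901 genes there, 0.14% were called by edgeR and 12 genes by DESeq2, and 1132 had such a p. Ahsa2, related to the Hsp90 activator Ahsa1, measured 46.6 and 55.1 CPM in young, 28.1 and 21.9 CPM in middle and 28.1 and 28.3 CPM in old sections (old against young -0.92, SE 0.15, adjusted p 0.0012). Dnaja1 measured 256.1 and 292.2 CPM in young and 195.0 to 226.4 CPM in older sections (-0.45, adjusted p 0.0132). Cacybp, which links Hsp90 complexes and a ubiquitin ligase, measured 110.1 and 124.1 CPM in young and 82.1 to 100.8 CPM in older sections (-0.52, adjusted p 0.00615). Fkbp4, an Hsp90-bound immunophilin, measured 145.2 and 149.7 CPM in young and 109.4 to 121.8 CPM in older sections (-0.38, adjusted p 0.0483). For each of the 4 the ages young and older did not overlap. Only the call of Ahsa2 between old and young was made under every alternative. Leaving out old 2 gave adjusted p of 0.289 for Dnaja1, 0.148 for Cacybp and 0.311 for Fkbp4. Leaving out young 2 gave 0.0567 for Dnaja1 and 0.0734 for Fkbp4, and Fkbp4 was also lost without young 1 (adjusted p 0.164) or old 1 (adjusted p 0.143). The middle calls of Ahsa2, Dnaja1 and Fkbp4 were lost without middle 2, with adjusted p of 0.0829, 0.308 and 0.308. That of Dnaja1 was also lost without middle 1 (adjusted p 0.125), young 1 (adjusted p 0.0578) or young 2 (adjusted p 0.176), and that of Fkbp4 without young 1 (adjusted p 0.101). DESeq2 called Ahsa2 and Dnaja1 between old and young, against 106 of all 12901 genes there. Between middle and young it called 0 of these genes, with adjusted p of 0.0903 for Dnaja1 and 0.0781 for Fkbp4 and none given for Ahsa2.

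The genes whose level was most like that of Hspa1a plus Hspa1b were named by Pearson's r of log2(CPM + 1) among 9579 other genes of at least 10 CPM, as a description of points that share libraries and depth. Over the 54 sums of 9 regions in 6 sections, after subtracting each region's mean, they were Nfkbia (r 0.912), Sgk1 (0.891), Dnaja1 (0.864), Ahsa2 (0.850), Dedd2 (0.793), Ddit4 (0.789), Hspb1 (0.785), Errfi1 (0.783), Cacybp (0.770) and P4ha1 (0.751). Among the chaperones described here, r over the same 54 sums was 0.891 for Hsph1, 0.887 for Dnajb1, 0.720 for Hspd1, 0.697 for Hsp90aa1, 0.660 for Hsp90ab1, 0.497 for Hspe1, 0.474 for Hspa8 and 0.019 for Hspa5. Only region means were subtracted, so each r includes the difference between young and older sections, which was known in the choice. Over the 6 whole sections alone the list was led by Spast (0.995), 4921524J17Rik (0.985), Nfkbia (0.982) and Dnaja1 (0.981), followed by Sox11, Arid4a, Kdm5b, Cacybp, Larp4 and Gnai3. With only 6 points and 9579 genes, the highest r can be large without a relation between the genes. How often this happens was not tested. Nfkbia, an inhibitor of NF-kappa-B that glucocorticoids also induce, measured 35.9 and 37.5 CPM in young, 19.2 and 21.0 CPM in middle and 21.4 and 21.5 CPM in old whole sections. In white matter Nfkbia measured 104.1 and 104.0 CPM in young, 38.0 in both middle and 40.7 and 37.6 CPM in old sections (old against young -1.48, SE 0.11, adjusted p 1.11e-07). Sgk1, a kinase induced by glucocorticoids, measured 573.9 and 984.9 CPM in young white matter, 114.8 and 191.7 CPM in middle and 154 and 195 CPM in old sections, and was not called there (adjusted p 0.186).

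Values of other gene lists in the same sections are given beside these. These lists, like those of the other chaperone and stress genes above, were chosen with earlier results of these data known. Their calls against young sections are therefore not independent of that choice. Of 13 genes of the glucocorticoid response, 2 were lower in old than in young whole sections by edgeR (Sgk1 -1.21, adjusted p 0.049, and Nfkbia -0.82, adjusted p 0.00354) and 0 were higher, against 0.158% of all genes called. Without old 2 the adjusted p was 0.395 for Sgk1 and 0.0514 for Nfkbia, and without old 1, young 1 or young 2 it was 0.262, 0.0591 and 0.0547 for Sgk1. In white matter 5 of 12 tested genes of this response were called lower in old than in young sections (Tsc22d3, Nfkbia, Errfi1, Klf9 and Cdkn1a), against 1.88% of all genes there, and only the call of Nfkbia was made under every alternative. The 2 cold-induced genes Cirbp and Rbm3 summed to 159 and 168 CPM in young, 231 and 203 CPM in middle and 233 and 207 CPM in old whole sections, and neither was called there. In white matter both were called higher in old than in young sections, against the same 1.88%. Rbm3 was higher by 0.60 (adjusted p 0.00216) and called under every alternative, while the call of Cirbp (0.59, adjusted p 0.00547) was lost without old 2 (adjusted p 0.0559) and with DESeq2 (adjusted p 0.0665). The 24 immediate early genes summed to 1601 and 1935 CPM in young and 1488 to 1759 CPM in older whole sections, with overlap. In meninges they summed to 3408 and 2761 CPM in young and 1371 to 1527 CPM in older sections. In white matter they overlapped between ages, with 806 and 969 CPM in young and 820 to 987 CPM in older sections. In isocortex they overlapped too, with 2449 and 3096 CPM in young and 2428 to 2991 CPM in older sections. Neuron markers in white matter summed to 1112 and 1263 CPM in young and 1300 to 1826 CPM in older sections, and oligodendrocyte markers to 44409 and 46623 CPM against 34120 to 40464 CPM. Between middle and young white matter, edgeR called 3 of 6 neuron markers higher and 4 of 6 oligodendrocyte markers lower, against 3.57% of all genes there. Between old and young, 0 markers of either group were called there. Microglia markers there summed to 559 and 635 CPM in young, 747 and 836 CPM in middle and 1019 and 1251 CPM in old sections, with 4 of 6 called higher in old than in young against 1.88% of all genes there. Without old 2 the call of Csf1r was lost (adjusted p 0.0973). The part of these groups in the chaperone differences was not tested.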

How the data were processed

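Raw UMI counts per gene and spot were deposited by the authors as filtered matrices, whose file headers name Space Ranger 1.3.1 as their source, while version 3.1 and the build mm10 are listed in the submitters' processing notes. Sections held 60939185 to 77557934 UMIs. Spots with at least 500 UMIs were kept. They were clustered (leidenalg 0.10.2, resolution 0.8, 2000 variable genes, 30 principal components, 20 neighbours) without the chaperone, immediate early, glucocorticoid and cold-induced genes, and clusters were named from marker genes. No doublet caller was run, as a spot can hold several cells. Counts were summed per section and region, and Hspa1a and Hspa1b were added up. CPM are counts per 1000000 of the UMIs of that section or region.

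Sums were tested with edgeR 4.0.16 (robust quasi-likelihood, TMM, filterByExpr, Benjamini-Hochberg adjustment over all genes, threshold 0.05), with age as the only term over the 6 sections (3 residual degrees of freedom). Tests of regions against other spots had the section as a block. With 2 sections per age, errors rest largely on the spread shared between genes, and an exact permutation test could not reach the threshold. Alternatives used DESeq2 1.42.0, limma 3.58.1, other filters, scalings, depths, region definitions and blocks, and left out each section in turn. The tests were checked on simulated data in which 200 genes changed by 1 on the log2 scale and all genes had the same spread. Of the changed genes, 92.2% were recovered in whole sections, 80.5% in white matter and 78.3% in the test of departures. False calls made up 2.81%, 4.92% and 3.09% of the calls. Smaller differences and genes of larger spread were not checked. The chaperone genes and gene lists were chosen with earlier results of these data known. Named were all 10 chaperone genes; of each list, up to 4 called genes per direction with the largest change and at least 5 CPM, or else its 2 most abundant; and the 10 genes most like Hspa1a plus Hspa1b in each of 2 rankings. Sequences come from RefSeq (GRCm38.p6) and GENCODE M21.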

Additional observations from a re-analysis of the deposited data

Results flagged for a closer look

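Regions whose age difference departed from that of all other spots in an interaction test (edgeR) are listed here with the log2 departure. The genes were chosen with their difference between young and older sections known, so these calls are not independent of the choice. Calls under every alternative were those of Hspa1a+Hspa1b in isocortex (old and middle) and in choroid plexus and ventricle (old), and of Dnajb1 in choroid plexus and ventricle (middle). For Hspa1a+Hspa1b between old and young it was 1.13 in isocortex, 0.81 in amygdala and olfactory cortex, -1.33 in choroid plexus and ventricle, -1.31 in meninges and -0.97 in striatum. Between middle and young it was 1.03 in isocortex, 0.97 in amygdala and olfactory cortex, -0.99 in choroid plexus and ventricle, -1.91 in meninges and -1.02 in striatum. Over the alternatives the middle value ran from 0.60 to 1.31 in amygdala and olfactory cortex and from -2.35 to -0.32 in meninges. For Dnajb1 it was -0.84 (old) and -1.14 (middle) in choroid plexus and ventricle and -0.61 (old) and -0.67 (middle) in white matter. For Hsph1 it was -0.41 (old) in white matter. Old and middle were set against the same young sections, so the 2 contrasts are not independent. Of these, the departures of Hspa1a+Hspa1b in amygdala and olfactory cortex, meninges and striatum and of Dnajb1 in choroid plexus and ventricle between old and young, and those of Hspa1a+Hspa1b in choroid plexus and ventricle and amygdala and olfactory cortex between middle and young were not called by DESeq2.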

How the results depend on the processing

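In whole sections, 0 of the 9 chaperone rows were called between old and middle under every alternative, and Hspa1a plus Hspa1b kept its sign between old and young, from -1.95 without old 1 to -1.66 without old 2. Hspe1, not called, ranged from -0.083 without young 2 to 0.014 without young 1. In white matter between old and middle, 1 row (Hsph1, -0.43) was called with the region taken as the tenth of spots of largest myelin share.

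The count of pairs departing from other spots, 8 for old and 7 for middle against young, was 4 in each with at least 10 UMIs in every sum, and ranged from 3 (without old 2; 4 without old 1) to 11 (without young 2) for old and from 6 to 11 (without young 2) for middle on leaving out sections, where a lone section was taken to vary like the others. For the departures of Hspa1a+Hspa1b between old and young, DESeq2 gave 0.80 in amygdala and olfactory cortex, -1.24 in meninges and -0.97 in striatum (not called), and -1.24 in thalamus and -2.02 in white matter (called). With at least 10 UMIs in every sum these were 0.80, -1.30 and -0.97 for the first 3 and not called. Without a filter on low counts thalamus (-1.21) and white matter (-1.98) were called. Meninges gave -0.33 at resolution 0.5 and -1.09 at 1.2, not called, and thalamus -1.22 at 1.2, called. Leaving out sections moved amygdala and olfactory cortex between 0.69 and 0.90, the hippocampal formation between 0.24 and 0.61, meninges between -1.75 and -0.73, striatum between -1.08 and -0.87, thalamus between -1.53 and -1.04 and white matter between -2.32 and -1.69. The cause of these changes was not tested. DESeq2 called 193 genes where edgeR called 28 in whole sections between old and young, 69 against 4 between middle and young, and in white matter 106 against 242 and 193 against 460.

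Equal replicate numbers did not mark shared animals, and same-numbered sections deviated together with a correlation of 0.0063 (young and middle), 0.18 (young and old) and 0.34 (middle and old) over 17672 genes. For middle and old sections the replicate number matches the slide, so number and slide cannot be told apart there. With the replicate number as a block, Hspa1a plus Hspa1b differed by -1.80 between old and young and by -1.74 between middle and young, and 0 rows were called between old and middle. With slide as a block the values were -1.72 and -1.66. Depth limits the smaller regions, where older sections held as few as 25 UMIs of both genes.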
